A study of Penicillium oxalicum with 6 samples.

Results

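The 4 α-glucosidase genes that the study names in *Penicillium oxalicum*, a filamentous fungus that secretes starch-degrading enzymes, were followed in 6 RNA-seq libraries of mycelium. They are *POX_e06687*, *POX_g08885*, *POX_f08248* and *POX_c03853*, chosen by gene ID as the study lists them, out of 9822 genes listed in each library. The study names all 4 among genes that differed between the strains compared here, so the choice was not independent of this comparison. The parental strain Δ*ku70* (3 libraries) lacks *ku70*, a gene of DNA end-joining whose loss makes gene replacement more efficient, and carries a hygromycin-resistance marker. The deletion strain (3 libraries) was made in Δ*ku70*, so it lacks *ku70* as well, and its label reads POX00418 deleted in {delta}PoxKu70. According to the study it carries a geneticin-resistance marker beside the hygromycin one. The study names the deleted gene *rsrC*, which encodes a C2H2 zinc-finger protein, and the strain is called Δ*rsrC* below. Mycelium of both strains grew for 24 h on glucose and was sampled 24 h after transfer to a second medium. The labels conflict on the carbon source of that medium, naming both Avicel and raw starch, and the study gives a commercial corn starch. They do not say whether the libraries of a strain come from separate cultures or transformants, so the p-values measure the spread between these libraries, which may be technical. No sequencing batch or date is given. The comparison asks how transcripts of each α-glucosidase gene differ when *rsrC* is absent.

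An α-glucosidase cleaves single glucose units from the non-reducing ends of maltose and other short α-linked sugars. In starch degradation it acts after α-amylase, which cuts inside the chains, and beside glucoamylase, which releases glucose from chain ends. In *Aspergillus*, some α-glucosidases also transfer glucose to form isomaltose, an inducer of amylase genes, and the transcription factor AmyR activates many of the genes. Fungal genomes hold several α-glucosidase genes, for secreted as well as intracellular enzymes. The study's annotation places *POX_c03853* in glycoside hydrolase family GH31. For the other 3 genes no family is given in the sources used here.

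Values are FPKM, fragment numbers divided by transcript length and by the mapped fragments of the library. The division by length allows levels to be compared between genes of a library, while comparisons between libraries depend on how the libraries are scaled. *rsrC* (POX_a01508) had 27.1, 30.3 and 39.0 FPKM in the Δ*ku70* libraries, and all 3 Δ*rsrC* libraries list it at 0. POX_a00418, whose ID contains the digits of the label, was at 48.0 to 66.0 FPKM in Δ*rsrC*. The conidiation regulator *brlA* (POX_c03558) was at 0.420 to 1.71 FPKM over the 6 libraries. Sequencing depth relative to Δ*ku70* replicate 1 ranged from 77.9% to 105%, and absolute depth is unknown. The summed FPKM of all genes was 1274812 to 1317078 in Δ*ku70* and 1493556 to 1536317 in Δ*rsrC*, so rescaling to equal sums (TPM) lowers every gene in Δ*rsrC* against Δ*ku70*. Of 8605 tested genes, 39.3% differed between the strains at an adjusted p-value under 0.05, 13.8% higher and 25.6% lower in Δ*rsrC*. Higher genes made up 35.0% of the calls on unscaled FPKM. With TPM they made up 16.9%, with median-ratio factors 52.1% and with quantile-normalized values 48.1%.

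Of the 4 genes, *POX_g08885* rose in Δ*rsrC*, *POX_e06687* fell, and *POX_f08248* and *POX_c03853* did not pass the test. *POX_f08248* accounted for most of the family's FPKM in every library of both strains. *POX_f08248* was among the 60 highest genes of each library. *POX_c03853* stood between the 84.2 and 88.1 percentiles of all genes listed, and *POX_e06687* between the 24.6 and 42.4 percentiles. *POX_g08885* moved from the 67.4 to 72.2 percentiles in Δ*ku70* to the 85.8 to 87.3 percentiles in Δ*rsrC*. By level, in each Δ*ku70* library the order was *POX_f08248*, *POX_c03853*, *POX_g08885* and *POX_e06687*, with no overlap between any pair. In Δ*rsrC* the same genes stood first and last, while *POX_g08885* and *POX_c03853* overlapped and did not differ beyond their spread.

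**Figure D1:**
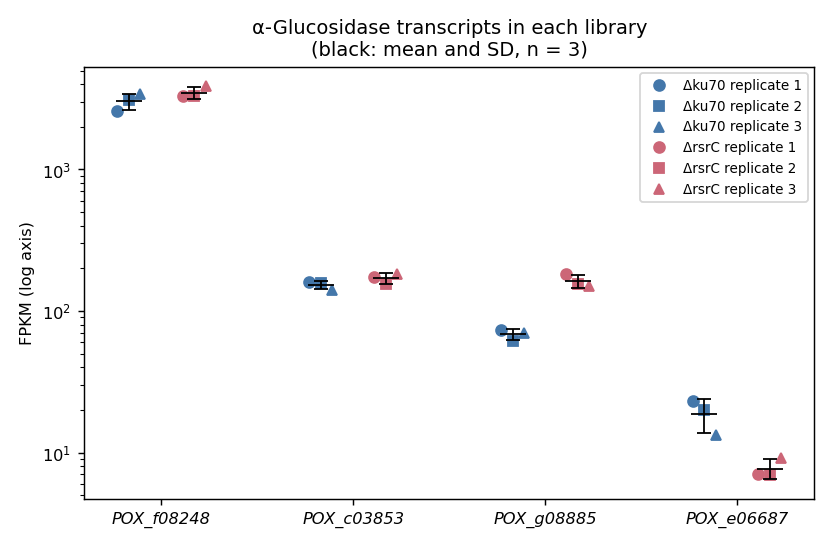
FPKM on a log axis of the 4 α-glucosidase genes in each of the 6 libraries, with blue for Δ*ku70*, red for Δ*rsrC*, marker shape for the replicate number and black bars for the mean and SD (n = 3). *POX_g08885* is higher in all 3 Δ*rsrC* libraries, *POX_e06687* is lower in all 3, and the other 2 genes overlap between the strains.

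*POX_g08885* was upregulated in Δ*rsrC*. It had 73.9, 61.6 and 69.5 FPKM in the Δ*ku70* libraries, against 182, 156 and 149 FPKM in those of Δ*rsrC*. The lowest Δ*rsrC* library thus stood above the highest Δ*ku70* library, and the mean rose 2.38-fold, from 68.3 ± 6.22 to 162 ± 17.5 FPKM (SD, n = 3). The log2 change on the log2(FPKM + 1) scale was 1.24 (95% interval 0.94 to 1.53, limma adjusted p = 0.00140). It lay at the 96.2 percentile of the changes of all tested genes. Replicates were close, with a coefficient of variation of 9.11% in Δ*ku70* and 10.8% in Δ*rsrC*, against medians of 13.4% and 11.4% over all tested genes.

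*POX_e06687*, the lowest of the 4 genes, was downregulated. It had 23.2, 19.9 and 13.4 FPKM in the Δ*ku70* libraries, against 7.08, 6.91 and 9.13 FPKM in those of Δ*rsrC*. The strains did not overlap, and Δ*ku70* replicate 3 was the nearest to the Δ*rsrC* libraries. The mean of 18.8 ± 5.02 FPKM (SD, n = 3) decreased by 59.1% to 7.71 ± 1.24 FPKM (SD, n = 3). The log2 change was -1.16 (95% interval -1.68 to -0.65, limma adjusted p = 0.00804), at the 4.46 percentile of all tested genes. It was the most variable of the 4 genes, with a coefficient of variation of 26.7% in Δ*ku70* and 16.0% in Δ*rsrC*.

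*POX_f08248* and *POX_c03853* did not pass the test. The study, by its own test and threshold, reports both as differing in Δ*rsrC*, with *POX_c03853* higher. *POX_f08248* had 2606, 3081 and 3409 FPKM in the Δ*ku70* libraries, against 3286, 3330 and 3874 FPKM in those of Δ*rsrC*. Δ*ku70* replicate 3 stood above 2 of the 3 Δ*rsrC* libraries, and the means were 3032 ± 404 and 3497 ± 328 FPKM (SD, n = 3). Its log2 change was 0.21 (95% interval -0.13 to 0.55, limma adjusted p = 0.281), and it became -0.02 after TPM rescaling, -0.06 after quantile normalization and 0.35 after median-ratio scaling (95% interval 0.01 to 0.69, limma adjusted p = 0.0947). *POX_c03853* had 162, 157 and 141 FPKM in the Δ*ku70* libraries, against 174, 155 and 183 FPKM in those of Δ*rsrC*, with Δ*rsrC* replicate 2 inside the Δ*ku70* range. The means were 153 ± 10.9 and 171 ± 14.5 FPKM (SD, n = 3). Its log2 change was 0.16 (95% interval -0.11 to 0.43, limma adjusted p = 0.307). It was -0.07 after TPM rescaling and 0.30 after median-ratio scaling (95% interval 0.0045 to 0.59, limma adjusted p = 0.0997). These intervals lie below a 2-fold rise and above a 2-fold fall, but they do not show that the genes were unaffected.

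Of the 4 genes, 2 were called (50%, against 39.3% of all tested genes). The 2 strains had no overlap in FPKM for these 2 genes, nor for 54.7% of all tested genes. These shares are near the background and say nothing particular about the family. Calls of at least 2-fold numbered 2 among the 4 genes and 10.4% among all tested genes. Because the study named the 4 genes as differing between these strains, none of these contrasts with all tested genes is a test of the family. All tested genes together had a median log2 change of -0.13, and the changes relative to it were 1.37 for *POX_g08885*, -1.03 for *POX_e06687*, 0.34 for *POX_f08248* and 0.29 for *POX_c03853*. TPM moved that median to -0.35, median-ratio factors to 0.00 and quantile normalization to -0.04. In bulk mycelium, fewer cells that transcribe a gene and less transcript per cell cannot be told apart.

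**Figure D2:**
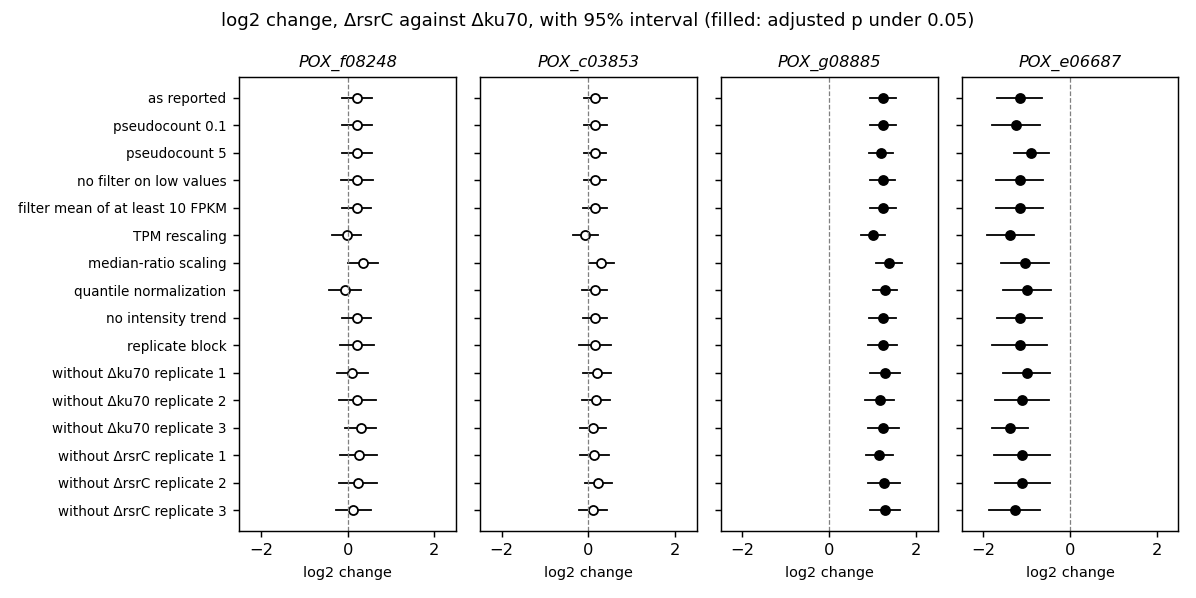
The log2 change of each α-glucosidase gene in Δ*rsrC* against Δ*ku70* (x axis) with its 95% interval, as reported and under 15 other settings (rows), with filled points for an adjusted p-value under 0.05. *POX_g08885* stays between 1.01 and 1.37 and *POX_e06687* between -1.38 and -0.89, all filled. The points of *POX_f08248* (-0.06 to 0.35) and *POX_c03853* (-0.07 to 0.30) are open. They lie above 0 except after TPM rescaling and, for *POX_f08248*, quantile normalization.

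Each gene's share of the summed FPKM of the 4 genes was taken within each library, where the scaling of the library cancels. *POX_f08248* held 91.0%, 92.8% and 93.8% of the family total in Δ*ku70* and 90.0%, 91.3% and 91.9% in Δ*rsrC*, so the strains overlapped (exact permutation p = 0.3). *POX_c03853* held 5.64%, 4.73% and 3.87% in Δ*ku70* and 4.78%, 4.25% and 4.35% in Δ*rsrC*, again with overlap (exact permutation p = 0.7). *POX_g08885* held 2.58%, 1.86% and 1.91% in Δ*ku70* and 4.99%, 4.27% and 3.54% in Δ*rsrC*. Its share was higher in all 3 Δ*rsrC* libraries, by 2.15 percentage points on average. *POX_e06687* held 0.811%, 0.598% and 0.368% in Δ*ku70* and 0.194%, 0.189% and 0.217% in Δ*rsrC*, lower in all 3 Δ*rsrC* libraries, with a mean difference of -0.392 percentage points. For both genes the two-sided exact permutation test gave p = 0.1, its lower limit with 3 libraries a strain, and 0.2 after Benjamini-Hochberg adjustment over the 4 shares.

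The family total therefore followed *POX_f08248*. It was 2865, 3319 and 3633 FPKM in Δ*ku70* and 3649, 3648 and 4216 FPKM in Δ*rsrC*. The ranges did not overlap, but the gap between Δ*ku70* replicate 3 and the lowest Δ*rsrC* library was small beside the spread within a strain. The mean difference of 565 FPKM had an exact permutation p-value of 0.1, and it was 9.38 FPKM after TPM rescaling, with an exact permutation p-value of 1, and 922 FPKM after median-ratio scaling. It was 362 FPKM without Δ*ku70* replicate 1 and 376 FPKM without Δ*rsrC* replicate 3. Of that difference of 565 FPKM, *POX_f08248* gave 465 FPKM and *POX_g08885* 94.0 FPKM, while *POX_c03853* gave 17.7 FPKM and *POX_e06687* -11.1 FPKM.

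With *POX_f08248* set aside, the make-up of the other 3 genes differed between the strains. *POX_c03853* held 62.4%, 65.8% and 63.0% of their sum in Δ*ku70* and 47.9%, 48.8% and 53.6% in Δ*rsrC*. *POX_g08885* held 28.6%, 25.8% and 31.1% in Δ*ku70* and 50.1%, 49.0% and 43.7% in Δ*rsrC*. *POX_e06687* held 8.98%, 8.33% and 5.98% in Δ*ku70* and 1.95%, 2.18% and 2.67% in Δ*rsrC*. None of the 3 shares overlapped between the strains (exact permutation p = 0.1 for each, also after adjustment over the 3). Shares of 1 sum are not independent: the lower share of *POX_c03853* stood beside an FPKM that was on average 17.7 higher in Δ*rsrC*.

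**Figure D3:**
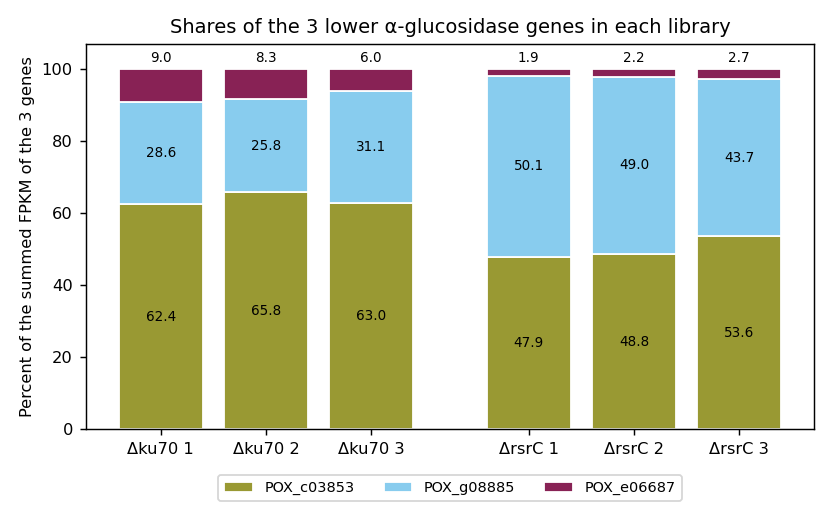
Stacked bars of the share (percent, y axis) of *POX_c03853*, *POX_g08885* and *POX_e06687* in the summed FPKM of these 3 genes, 1 bar per library. *POX_g08885* takes 25.8% to 31.1% in Δ*ku70* and 43.7% to 50.1% in Δ*rsrC*, and *POX_e06687* takes 5.98% to 8.98% and 1.95% to 2.67%.

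To compare the responses of the genes with each other, the log2 ratio of (FPKM + 1) was taken for all 6 pairs within each library. Its difference between the strains equals the difference of the 2 genes' log2 changes given above, so it is not separate evidence. The pair with opposite responses therefore differed most. *POX_g08885* stood at 3.18, 3.10 and 5.20 times the FPKM of *POX_e06687* in Δ*ku70* and at 25.7, 22.5 and 16.3 times in Δ*rsrC*. The mean log2 ratio was 1.84 ± 0.398 (SD, n = 3) for Δ*ku70* and 4.23 ± 0.313 (SD, n = 3) for Δ*rsrC*. These means differ by 2.40. Against *POX_c03853*, whose own change did not pass, *POX_g08885* stood 1.08 higher in log2 ratio in Δ*rsrC*, and against *POX_f08248* 1.02 higher. *POX_c03853* had 2.03 to 2.55 times the FPKM of *POX_g08885* in Δ*ku70* and 0.957 to 1.23 times in Δ*rsrC*. The log2 ratios of *POX_c03853* and of *POX_f08248* to *POX_e06687* were 1.32 and 1.37 higher in Δ*rsrC*. For each of these 5 pairs the strains did not overlap, and the exact permutation test gave p = 0.1, its lower limit, and 0.12 after adjustment over the 6 pairs.

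The sixth pair was *POX_c03853* and *POX_f08248*. *POX_f08248* had 16.1, 19.6 and 24.2 times the FPKM of *POX_c03853* in Δ*ku70* and 18.9, 21.5 and 21.1 times in Δ*rsrC*. The Δ*rsrC* libraries lay within the Δ*ku70* range, and the log2 ratio differed by -0.05 (exact permutation p = 0.8), which without Δ*ku70* replicate 1 was 0.09.

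**Figure D4:**
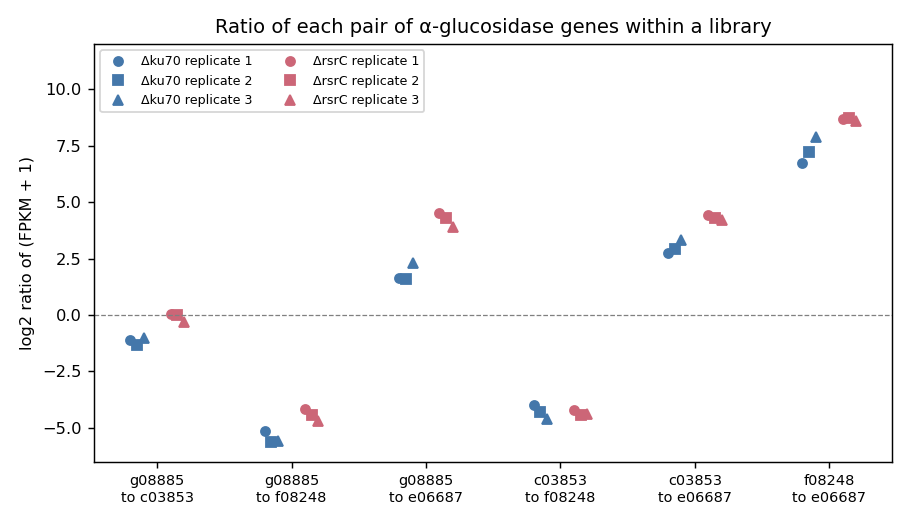
Log2 ratio of (FPKM + 1) of each pair of α-glucosidase genes within a library (y axis) for the 6 pairs (x axis), with blue for Δ*ku70* and red for Δ*rsrC*. The strains separate for 5 pairs, by 1.02 to 2.40 on the log2 scale, and overlap for *POX_c03853* to *POX_f08248*.

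The Δ*ku70* libraries also differed among themselves. *POX_e06687* was highest in Δ*ku70* replicate 1 and lowest in replicate 3, while *POX_f08248* was lowest in replicate 1 and highest in replicate 3. *POX_f08248* thus stood at 112, 155 and 255 times the FPKM of *POX_e06687* in Δ*ku70* replicates 1, 2 and 3, against 464, 482 and 424 times in Δ*rsrC*. The SD of that log2 ratio was 0.575 in Δ*ku70* and 0.0702 in Δ*rsrC*. The glucoamylase genes *PoxGA15A* and *POX_b02418* and the α-amylase gene *amy13A* had the same order over the Δ*ku70* libraries as *POX_f08248*, from 773 to 1473, from 369 to 872 and from 134 to 517 FPKM. *POX_c03853* had the order of *POX_e06687*, within 141 to 162 FPKM. With 3 libraries this is a description, and its part in the results was not tested. Without Δ*ku70* replicate 3 the log2 change of *POX_e06687* was -1.38, and without replicate 1 it was -1.0, with limma adjusted p-values of 0.00336 and 0.0253.

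Other genes of starch and α-glucan metabolism were compared in the same fit. The list held the 4 other amylolytic genes of the study and 4 genes that its annotation gives as α-glucosidase or places in families GH13 or GH133, as far as that annotation was held. Of the 8 genes, 4 fell and 0 rose at an adjusted p-value under 0.05, where 25.6% of all tested genes fell and 13.8% rose, and the median log2 change was -0.16, against -0.13 over all tested genes. At an unadjusted p-value under 0.05 no gene of the list was higher either. The study names *PoxGA15A*, *POX_b02418* and *POX_d05520* as differing in Δ*rsrC*. The 4 annotated genes came from its supplement, whose gene lists hold genes that differed in a strain deleted for *rsrA*, *rsrB* or *rsrC*. The counts are therefore not independent of this comparison and do not test the list. The 2 glucoamylase genes fell. *PoxGA15A* (POX_a00573), the raw starch-degrading enzyme, had 773, 1151 and 1473 FPKM in the Δ*ku70* libraries, against 495, 561 and 503 FPKM in those of Δ*rsrC*. *POX_b02418* had 369, 535 and 872 FPKM in the Δ*ku70* libraries, against 187, 208 and 193 FPKM in those of Δ*rsrC*.

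*POX_b03243*, annotated in families GT5, GH13 and GT4, fell with a log2 change of -0.73 (limma adjusted p = 0.00924). *POX_b03390*, of family GH133, to which the glycogen debranching enzyme of yeast belongs, fell by 0.43 on the log2 scale (limma adjusted p = 0.0497), and it missed the threshold in 11 of 15 alternatives. Another gene annotated as α-glucosidase, *POX_b03468* of family GH13, is not among the 4 listed genes. It had 9.84, 14.5 and 19.97 FPKM in the Δ*ku70* libraries, against 16.8, 22.1 and 15.6 FPKM in those of Δ*rsrC*, with overlap (limma adjusted p = 0.350). *amy13A* (POX_c04732), the branching enzyme gene *POX_d05520* and *POX_b03245* of family GH13 had log2 changes of 0.74, 0.19 and 0.11, with limma adjusted p-values of 0.237, 0.292 and 0.489. Leaving out Δ*ku70* replicate 1 gave 0.18 for *amy13A*, and leaving out replicate 3 of that strain gave 1.15. After TPM rescaling those of *POX_d05520* and *POX_b03245* were -0.04 and -0.12.

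Of 5 regulators of amylase genes named by the study, 2 fell and 0 rose, a share of calls near the 39.3% of all tested genes. The study itself, by its own test and threshold, reports *creA* and *rsrA* as lower and *rsrB* as higher in Δ*rsrC*. It also measured *rsrA* as lower in Δ*rsrC* by RT-qPCR. The count of regulators is therefore not independent of the comparison either. *creA* (POX_e07192), the carbon catabolite repressor, had 260, 240 and 278 FPKM in the Δ*ku70* libraries, against 149, 195 and 168 FPKM in those of Δ*rsrC* (limma adjusted p = 0.0126). *rsrA* (POX_a00019), known in this fungus as an activator of amylase genes, had 26.0, 27.8 and 33.4 FPKM in the Δ*ku70* libraries, against 23.2, 18.0 and 19.9 FPKM in those of Δ*rsrC* (limma adjusted p = 0.0329). *rsrA* exceeded 0.05 in 7 of 15 alternatives, up to 0.189, and those without Δ*ku70* replicate 2, Δ*ku70* replicate 3, Δ*rsrC* replicate 2 and Δ*rsrC* replicate 3 each left 1 regulator called. *amyR* (POX_f08097), *cxrC* (POX_a00541) and *rsrB* (POX_g08691) had limma adjusted p-values of 0.0587, 0.0816 and 0.278. After TPM rescaling, 4 of the 5 regulators were called as lower.

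The 4 α-glucosidase genes lie on different chromosomes, *POX_c03853* on III, *POX_e06687* on V, *POX_f08248* on VI and *POX_g08885* on VII of the HP7-1 assembly in RefSeq, and none overlaps another gene there. The 5 gene numbers on each side of each gene were compared in the same fit. Of these 40 genes 37 were tested, and 18 were called (48.6%, against 39.3% of all tested genes), 6 higher and 12 lower. Of all tested genes 13.8% were higher and 25.6% lower.

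Beside *POX_e06687*, 6 of 10 neighbours were called, 4 lower and 2 higher. *POX_e06686*, next to it, had 7.35, 14.1 and 12.5 FPKM in the Δ*ku70* libraries, against 1.86, 2.02 and 2.55 FPKM in those of Δ*rsrC*, with a log2 change of -1.93 (limma adjusted p = 0.00300). *POX_e06688*, on the other side, had a log2 change of -0.91 (limma adjusted p = 0.00503), and *POX_e06685* and *POX_e06683* had -0.999 and -0.95. *POX_e06687* thus stood between 2 neighbours that fell with it, while the median log2 change of its 10 neighbours was -0.05. The neighbours *POX_e06682* and *POX_e06689* rose, with log2 changes of 0.99 and 0.85. After quantile normalization *POX_e06689* had 0.44 (limma adjusted p = 0.0826), and *POX_e06683* exceeded 0.05 in 5 of 15 alternatives.

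Beside *POX_g08885*, 2 of 10 neighbours were higher and 3 lower. *POX_g08884*, next to it, had 22.0, 19.0 and 20.7 FPKM in the Δ*ku70* libraries, against 36.6, 31.4 and 27.2 FPKM in those of Δ*rsrC*, a log2 change of 0.59 (limma adjusted p = 0.0146). The next 3 gene numbers, *POX_g08883*, *POX_g08882* and *POX_g08881*, fell, with log2 changes of -0.85, -0.85 and -0.59. *POX_g08886*, on the other side, had a log2 change of 0.06 (limma adjusted p = 0.680). *POX_g08890* rose from 288, 289 and 226 FPKM in Δ*ku70* to 608, 411 and 728 FPKM in Δ*rsrC*, a log2 change of 1.09 (limma adjusted p = 0.0108).

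Beside the 2 genes that did not pass, neighbours changed as well. *POX_f08247*, next to *POX_f08248*, had 883, 1307 and 1398 FPKM in the Δ*ku70* libraries, against 652, 536 and 711 FPKM in those of Δ*rsrC* (limma adjusted p = 0.0148, and 0.0535 without Δ*rsrC* replicate 2). *POX_f08251* fell as well and *POX_f08252* rose, with log2 changes of -0.95 and 1.68. Near *POX_c03853*, *POX_c03848*, *POX_c03849* and *POX_c03850* fell, with log2 changes of -0.51, -0.58 and -0.60. *POX_c03851* rose with a log2 change of 0.41 (limma adjusted p = 0.0360). *POX_c03849* and *POX_c03851* exceeded 0.05 in 9 and 6 of 15 alternatives.

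**Figure D5:**
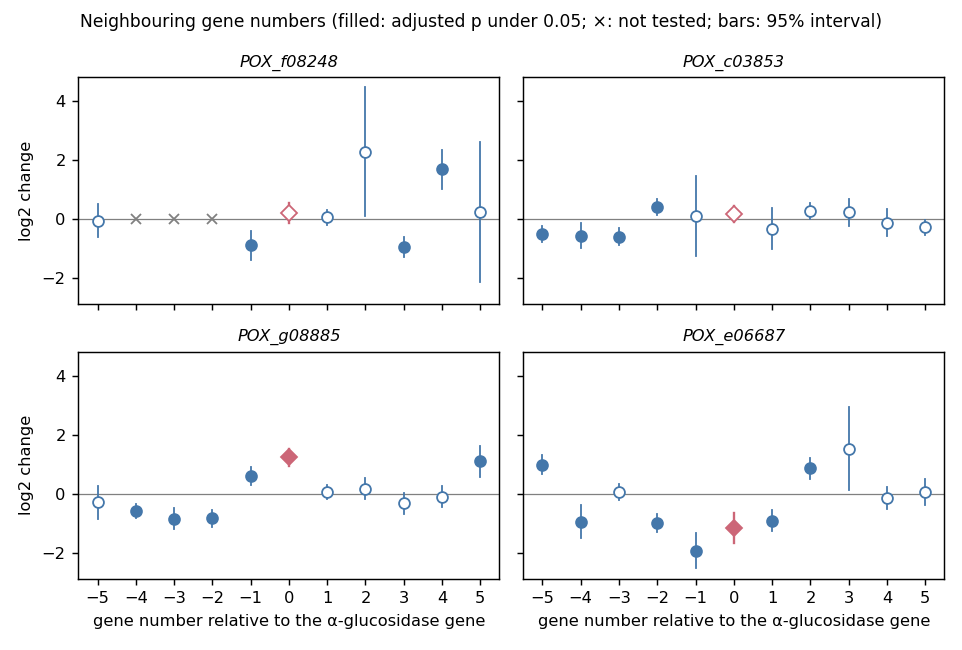
Log2 change in Δ*rsrC* against Δ*ku70* with its 95% interval (y axis) of the 5 gene numbers on each side of each α-glucosidase gene (x axis, gene number relative to it, with the gene itself in red at 0). Filled points have an adjusted p-value under 0.05 and crosses mark 3 genes that were not tested; *POX_e06687* sits between lower neighbours, and *POX_f08248* and *POX_c03853* are open among filled points of both directions.

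Genes with the most similar profiles were sought by the root mean square difference of log2(FPKM + 1) over the 6 libraries, after each gene was centred on its own mean, among 7096 genes that averaged 10 FPKM or more. Closest to *POX_g08885* were *POX_e07095* (0.0535) and *POX_a01012* (0.0654). *POX_e07095* had 147, 128 and 149 FPKM in the Δ*ku70* libraries, against 401, 325 and 328 FPKM in those of Δ*rsrC*, so it shared the high value of Δ*rsrC* replicate 1. Closest to *POX_e06687* were *POX_e07007* (0.0710) and *POX_d05139* (0.125). *POX_e07007* had 18.5, 15.7 and 9.99 FPKM in the Δ*ku70* libraries, against 4.71, 5.42 and 6.55 FPKM in those of Δ*rsrC*, with the same low Δ*ku70* replicate 3. *POX_b03148* (0.0509) and *POX_a01336* (0.0568), the latter annotated as a methylmalonate-semialdehyde dehydrogenase, were closest to *POX_f08248*. *POX_a00381* (0.0214) and *POX_f07592* (0.0362) were closest to *POX_c03853*. These profiles were matched on the same 6 values that they describe.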

How the data were processed

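RNA-seq of 6 mycelium libraries was analysed, 3 per strain, with groups taken from the sample titles. Polyadenylated RNA was sequenced on a BGISEQ platform. The study's methods name BWA, Bowtie2, RSEM and NOISeq, while the submitters' processing notes name bcl2fastq and HISAT2; the genome was that of strain HP7-1. The authors deposited FPKM for 9822 genes per library, rounded to 2 decimals, with no counts, so no interval from counting error or detection floor was computed. The number of replicates limits precision.

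Genes averaging 1 FPKM or more over the 6 libraries (8605) were tested as log2(FPKM + 1) with limma 3.58.1 in R 4.3.3 (eBayes with an intensity trend, no covariate), two-sided, with Benjamini-Hochberg adjustment over all tested genes. A log2 change understates the change of low genes. Within-library shares, sums and log2 ratios were compared with two-sided exact permutation tests, which cannot go below p = 0.1 here. Relative depth was read from genes between 0.1 and 2 FPKM, as the most frequent ratio between libraries. Alternatives were pseudocounts of 0.1 and 5 (0 and 5 for pair ratios), no filter and a filter of 10 FPKM, TPM, median-ratio and quantile scaling, no trend, a replicate block and leaving out each library; for shares, log2 values and the addition of *POX_b03468*.

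The genes, lists, alternatives and the naming rule were chosen with earlier results of these data known. The text names the 4 genes, *rsrC*, POX_a00418, the genes of both lists, the neighbours at an adjusted p-value under 0.05 and the 2 most similar genes of each. *brlA*, POX_g08886 and the libraries' internal pattern were added afterwards. Gene order and chromosomes came from the RefSeq table of ASM172317v3, which matched 9718 IDs; the tables name no build, so no coordinates are given. The supplement was held in part, so the family annotations are not complete.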

Additional observations from a re-analysis of the deposited data

How the results depend on the processing

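The calls of *POX_g08885* (log2 change 1.01 to 1.37) and *POX_e06687* (-1.38 to -0.89) held in all 15 alternatives, and so did the count of 1 gene higher and 1 lower. Leaving out 1 library at a time gave 1.15 to 1.29 for *POX_g08885*, -1.38 to -1.0 for *POX_e06687*, 0.11 to 0.30 for *POX_f08248* and 0.10 to 0.22 for *POX_c03853*.

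Log2 changes near 0 changed sign with scaling. After TPM rescaling, which multiplies each library by 1 factor, these were *POX_f08248* (-0.018), *POX_c03853* (-0.072), *POX_d05520* (-0.039), *POX_b03245* (-0.12) and *rsrB* POX_g08691 (-0.016). After quantile normalization, which changes values by rank, *POX_f08248* had -0.060, and the cause was not tested. The number of regulators called as lower was 4 after TPM rescaling, 1 after median-ratio scaling, 1 after quantile normalization and 1 with the replicate block, and 1 to 2 without 1 library. As shares of summed log2(FPKM + 1), *POX_f08248* was 0.12 and *POX_c03853* 0.16 percentage points higher in Δ*rsrC*, and *POX_c03853* 0.33 points higher without *POX_f08248*. The log scale gives low genes more weight. Without Δ*ku70* replicate 1 the share of *POX_c03853* was 0.15 points higher. With 1 library left out at a time, the difference of that share between the strains was -0.73 to 0.15 points, and that of the log2 ratio of *POX_c03853* to *POX_f08248* was -0.20 to 0.090.

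Both strains carry replicate numbers 1 to 3. Deviations of same-numbered libraries correlated across genes at 0.0046, -0.13 and -0.24, which gives no sign of pairing by replicate number. Between differently numbered libraries they ran from -0.097 to 0.22, highest for Δ*ku70* replicate 2 with Δ*rsrC* replicate 3. A batch shared under other numbers was not tested. With the replicate block 2213 genes were called in place of 3386. *POX_g08885* (adjusted p = 0.0109) and *POX_e06687* (adjusted p = 0.0314) stayed called, at log2 changes of 1.24 and -1.16.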
